A study of Mus musculus with 30 samples.

Results

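The 43 genes described here drive and carry out the cell division cycle, and they were taken by symbol from the 18022 genes of the deposited expression table. All 43 were present once, and all 43 passed the filter of a mean above 0 log2 CPM (CPM are reads per gene scaled to library size), which left 14740 genes for testing. By role they comprise 5 G1 cyclins, 3 regulators (E2f1, Foxm1 and Cdkn1a), 9 genes of origin licensing, 3 of DNA and nucleotide synthesis, 7 mitotic kinases and cyclins, 5 of the spindle checkpoint and its target, the anaphase promoting complex, and 11 of chromosomes, spindle and cytokinesis. The measured values are log2 CPM, which are not corrected for gene length, so levels are compared between libraries for 1 gene and never between genes.

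RNA was sequenced from whole ovaries of adult female CD1 mice, an outbred laboratory strain. Dosing lasted 10 days. The mice received DEHP, which is di(2-ethylhexyl) phthalate, in a daily dose of 20 or 200 ug/kg, or DiNP, diisononyl phthalate, in a daily dose of 20 or 100 ug/kg. The others received vehicle, whose composition the labels do not give. Ovaries were collected 3 months after dosing ended or immediately afterwards (0 months). Both compounds are phthalate diesters used as plasticizers of polyvinyl chloride, and they differ in the alcohol that forms the ester. The 10 groups are thus DEHP 20, DEHP 200, DiNP 20, DiNP 100 and vehicle ovaries at 3 months and the same 5 at 0 months, with 3 libraries each and 30 in all. The labels do not say that replicates came from separate mice, so the p-values reflect the spread among these libraries, which may be technical, and a replicate number here only names a library. Mice of the 3 month groups were also older at collection, and age, time since dosing and anything else that differed between the 2 collections cannot be told apart.

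The table holds no read counts, and the spacing of its low values did not settle the depth of the libraries. Within groups, pairs of libraries had r = 0.908 to 0.98 across genes, which are not independent replicates. The ovarian label was checked against marker genes: all 10 granulosa cell markers and all 10 oocyte markers were above the lowest value of the table in every library, among them Inha (median 10.7 log2 CPM) and Gdf9 (median 6.28). The 6 markers of T, B and NK cells together summed to 2.67 to 7.56 CPM per library. Oviduct epithelium markers summed to 150.9 and 59.34 CPM in DEHP 20 replicates 2 and 3 of 3 months. They summed to 102.5 CPM in DEHP 200 replicate 1 of 3 months and to 1.51 to 15.31 CPM elsewhere. Adipocyte markers summed to 261.4 CPM in DEHP 200 replicate 3 of 0 months and to 21.22 to 117 CPM elsewhere. Tissue from outside the ovary in these libraries was not tested. In a bulk tissue, fewer cells of a type and less RNA per cell cannot be told apart.

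Cells leave G1 when cyclin D and then cyclin E kinases release E2F transcription factors, which switch on the genes that load the MCM helicase onto replication origins and those that make DNA. After S phase a second wave of genes, driven by FOXM1 and B-MYB, builds the mitotic kinases, the spindle and the checkpoint that holds cells until every chromosome is attached. In the ovary the cells that divide most are the granulosa cells of growing follicles, in which FSH induces cyclin D2, whereas oocytes are held in meiosis and luteal cells have largely left the cycle.

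The bases before the start sites are shown for 6 of the members, and a part of these bases in any change of level was not tested. RefSeq start sites (GRCm38.p6) were given for 33 of the 43 genes, and the 250 bases before each listed start were searched on both strands for 3 motifs. The listed start is not always the outermost one of the gene, so 12 of the 33 windows hold bases inside the annotated gene span. These are the cell cycle homology region (CHR, TTTGAA, which binds the DREAM and MuvB complexes), the CCAAT box (CCAAT, bound by NF-Y) and 4 forms of the E2F site (TTTGGCGC, TTTCCCGC, TTTCGCGC and TTTGCCGC). After the motifs had been counted, the windows shown were picked by hand, 6 of the 12 entries with motifs of more than 1 kind. They are Mcm5 (chr8:75109259-75109508, plus strand), Mcm6 (chr1:128359706-128359955, minus strand), Cdk1 (chr10:69352913-69353162, minus strand), Cdc20 (chr4:118437344-118437593, minus strand), Mki67 (chr7:135716380-135716629, minus strand) and Top2a (chr11:99024190-99024439, minus strand). Of these windows, Mcm5 has 41 bases, Mki67 has 71 and Top2a has 10 inside the gene span, at the 3′ end, and the other 3 have none. Each is read 5′ to 3′ toward the gene, and capitals mark every match to any of the 3 motifs on either strand.
Mcm5: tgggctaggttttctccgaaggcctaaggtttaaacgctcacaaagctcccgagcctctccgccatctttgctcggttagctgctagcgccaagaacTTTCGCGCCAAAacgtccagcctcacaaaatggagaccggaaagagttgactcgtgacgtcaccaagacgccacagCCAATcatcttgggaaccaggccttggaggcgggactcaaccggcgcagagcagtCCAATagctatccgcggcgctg
Mcm6: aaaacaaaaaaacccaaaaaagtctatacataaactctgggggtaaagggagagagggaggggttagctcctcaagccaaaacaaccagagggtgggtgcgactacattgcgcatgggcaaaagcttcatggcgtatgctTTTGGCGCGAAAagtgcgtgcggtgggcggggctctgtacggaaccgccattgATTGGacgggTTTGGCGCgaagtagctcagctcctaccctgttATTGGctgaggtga
Cdk1: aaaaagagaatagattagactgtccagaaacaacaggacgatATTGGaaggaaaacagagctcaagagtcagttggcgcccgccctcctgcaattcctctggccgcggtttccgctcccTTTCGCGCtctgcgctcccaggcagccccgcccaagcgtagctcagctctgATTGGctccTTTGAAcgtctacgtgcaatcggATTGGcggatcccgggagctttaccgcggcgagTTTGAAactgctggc
Cdc20: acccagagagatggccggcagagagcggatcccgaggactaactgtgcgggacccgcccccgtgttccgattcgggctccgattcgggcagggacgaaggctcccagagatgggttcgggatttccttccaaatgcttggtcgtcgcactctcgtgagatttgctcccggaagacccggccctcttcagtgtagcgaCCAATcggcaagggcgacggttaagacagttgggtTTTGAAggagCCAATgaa
Mki67: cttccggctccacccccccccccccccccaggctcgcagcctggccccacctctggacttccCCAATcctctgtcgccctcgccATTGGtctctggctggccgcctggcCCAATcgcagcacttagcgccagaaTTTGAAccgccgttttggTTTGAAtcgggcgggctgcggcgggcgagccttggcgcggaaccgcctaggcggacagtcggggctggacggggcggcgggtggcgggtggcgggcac
Top2a: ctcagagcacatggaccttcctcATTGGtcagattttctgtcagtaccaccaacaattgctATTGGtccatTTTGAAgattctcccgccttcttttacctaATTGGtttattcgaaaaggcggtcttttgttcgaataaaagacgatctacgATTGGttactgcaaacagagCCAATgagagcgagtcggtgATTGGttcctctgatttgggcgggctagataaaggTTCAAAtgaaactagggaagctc
Mcm5 and Mcm6, subunits of the replicative helicase, have E2F matches and CCAAT boxes, and in each a pair on opposite strands overlaps in 1 run of capitals. Cdk1, the kinase of mitotic entry, has matches to all 3 motifs. Cdc20, Mki67 and Top2a have CHR matches and CCAAT boxes and no E2F match in these letters.

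Over the 33 entries, the CCAAT box was found in 23 (69.7%), against 34.5% of all 27025 windows of the same length. The CHR was found in 9 (27.3%), against 16.3% of all windows, and an E2F form in 5 (15.2%), against 1.91%. The E2F matches lay in 4 of the 7 entries of origin licensing genes and in 1 of the 5 entries of mitotic kinases and cyclins. Among these, the Cdc6 window lay wholly inside the annotated gene span (250 bases) and the Mcm7 window had 228 bases inside it. The CCAAT box was in all 5 entries of mitotic kinases and cyclins, and the CHR was in 4 of the 9 entries of chromosome and spindle genes. The windows of Aurka, counted for the first, and Ect2, counted for the second, also lay wholly inside the gene span. A match is a description of the letters, not a bound site, and no binding was measured here.

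The difference between collection times was the main pattern of these genes. At 3 months 32 of the 43 members had fallen relative to 0 months, averaged over the 5 treatments, and none had risen (limma on log2 CPM, adjusted p under 0.05). Over all 14740 genes tested, 20.3% were called in this comparison, 9.63% lower and 10.6% higher. By direction alone 39 members were lower and 4 were higher, with a median of -0.35 log2, while the median over all genes tested was 0.0032. At an unadjusted p under 0.05, 37 members were lower (16.5% of all genes) and 1, Ccnd3, was higher (18.6%). The 32 members ranged in fold change between -0.61 (E2f1) and -0.24 (Mcm4).

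**Figure D1:**
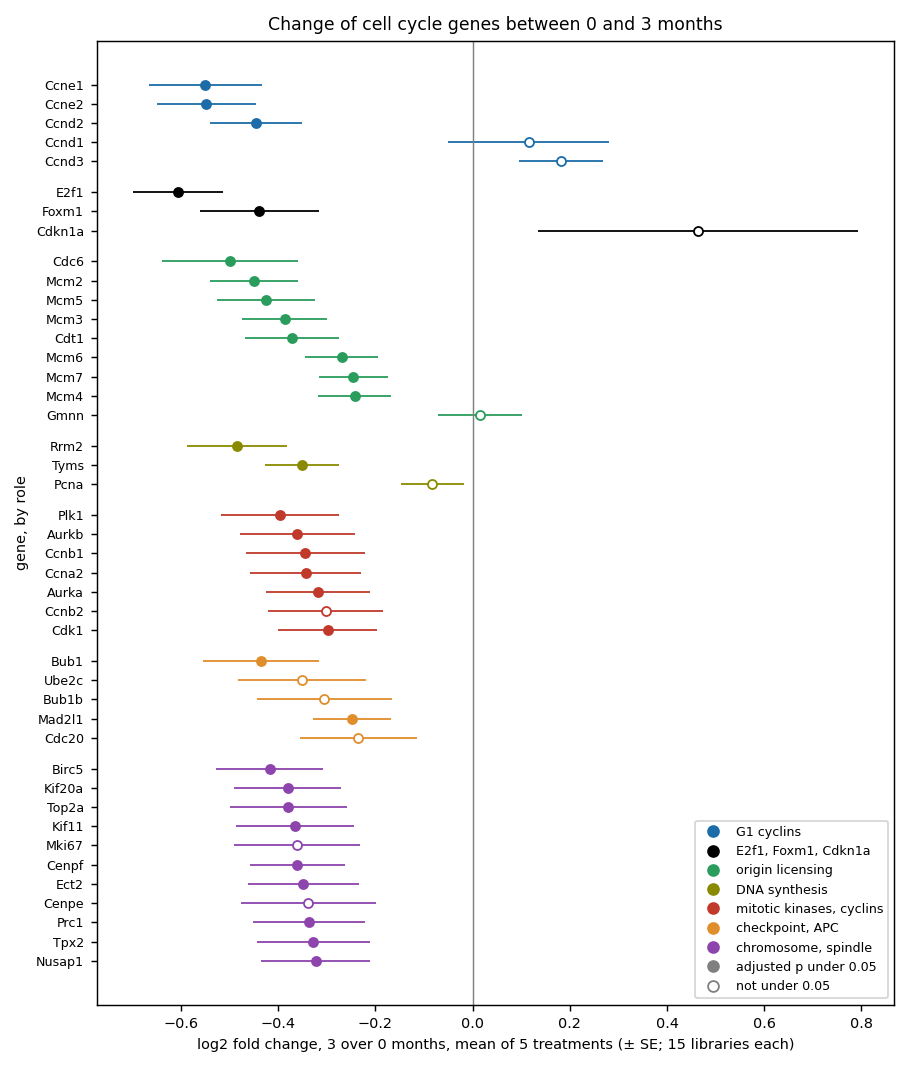
Fold changes of the 43 genes between collections. Points give the log2 fold change of 3 over 0 months averaged over the 5 treatments (x axis, log2) with its standard error, for genes grouped and coloured by role (y axis); filled points had an adjusted p under 0.05. All filled points lie left of 0, between -0.61 and -0.24, and Cdkn1a, at 0.46, has the widest error.

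The smallest p was that of E2f1, the E2F factor that switches on S phase genes (chr2:154559400-154569892). At 3 months it had 4.02, 3.57 and 3.49 log2 CPM in DEHP 20 ovaries, 3.73, 3.72 and 3.90 in DEHP 200 ovaries, 3.20, 3.51 and 3.66 in DiNP 20 ovaries, 3.64, 3.17 and 3.52 in DiNP 100 ovaries and 3.70, 3.57 and 3.33 in vehicle ovaries. At 0 months it had 4.57, 4.09 and 4.16 log2 CPM in DEHP 20 ovaries, 4.04, 4.05 and 4.70 in DEHP 200 ovaries, 3.79, 3.85 and 4.45 in DiNP 20 ovaries, 4.17, 4.20 and 3.99 in DiNP 100 ovaries and 4.54, 4.08 and 4.13 in vehicle ovaries. Of the 15 libraries of 3 months, 13 lay below every library of 0 months, and within each of the 5 treatments the 3 libraries of 3 months lay below the 3 of 0 months. E2f1 averaged 3.58 ± 0.23 log2 CPM at 3 months and 4.19 ± 0.26 at 0 months (SD, n = 15 each). Its log2 fold change was -0.61 ± 0.09 (SE, limma adjusted p = 0.000296).

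Foxm1, the factor that drives genes of mitosis, ran between 3.82 and 5.18 log2 CPM at 3 months (median 4.64), against 4.50 and 5.73 at 0 months (median 5.08). The 2 ranges overlapped, and its log2 fold change was -0.44 ± 0.12 (SE, limma adjusted p = 0.0157). Cdkn1a encodes the CDK inhibitor p21, a target of p53. At 3 months it had 6.37, 4.19 and 4.41 log2 CPM in DEHP 20 ovaries, 5.03, 6.83 and 4.68 in DEHP 200 ovaries, 5.61, 5.74 and 7.36 in DiNP 20 ovaries, 5.63, 6.18 and 5.56 in DiNP 100 ovaries and 4.48, 6.96 and 6.23 in vehicle ovaries. The 0 month libraries held 4.39, 4.56 and 5.96 log2 CPM in DEHP 20 ovaries, 5.12, 5.09 and 3.37 in DEHP 200 ovaries, 5.82, 5.59 and 4.23 in DiNP 20 ovaries, 5.95, 5.89 and 4.11 in DiNP 100 ovaries and 6.14, 6.54 and 5.54 in vehicle ovaries. These values spread widely within most groups, and no treatment separated the times. The log2 fold change of Cdkn1a was 0.46 ± 0.33 (SE, limma adjusted p = 0.331). Its SD within groups, 0.96 log2, was at percentile 96.9 of all genes tested, whereas that of E2f1 was 0.26.

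Among the G1 cyclins, the E cyclins and Ccnd2 fell and the other D cyclins did not pass. Ccne2, a cyclin E that activates CDK2 for S phase entry, ran between 2.86 and 3.85 log2 CPM at 3 months (median 3.40), against 3.32 and 4.41 at 0 months (median 3.89). All 15 libraries of 3 months were below the median of 0 months, and 9 libraries of 0 months were above every library of 3 months. The log2 fold change was -0.55 ± 0.10 (SE, limma adjusted p = 0.00144). Ccne1, the other cyclin E, had a log2 fold change of -0.55 ± 0.12 (adjusted p = 0.00315).

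Ccnd2, the cyclin D of granulosa cells (chr6:127125162-127152188), had 7.65, 7.30 and 7.36 log2 CPM in DEHP 20 ovaries, 7.65, 7.70 and 7.96 in DEHP 200 ovaries, 7.35, 7.39 and 8.14 in DiNP 20 ovaries, 7.23, 7.52 and 6.76 in DiNP 100 ovaries and 7.69, 7.50 and 7.50 in vehicle ovaries at 3 months. Its 0 month levels were 8.25, 8.19 and 7.89 log2 CPM in DEHP 20 ovaries, 8.11, 7.52 and 8.19 in DEHP 200 ovaries, 7.75, 7.83 and 7.74 in DiNP 20 ovaries, 8.07, 7.66 and 7.54 in DiNP 100 ovaries and 8.44, 8.25 and 7.95 in vehicle ovaries. DEHP 20, DiNP 100 and vehicle ovaries of 3 months lay below those of 0 months, while the DEHP 200 and DiNP 20 ovaries overlapped. The log2 fold change over the 5 treatments was -0.45 ± 0.10 (SE, limma adjusted p = 0.00348). Ccnd3 had a log2 fold change of 0.18 ± 0.09 (adjusted p = 0.135) and Ccnd1 of 0.12 ± 0.17 (adjusted p = 0.659), both cyclins D that activate CDK4 and CDK6.

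**Figure D2:**
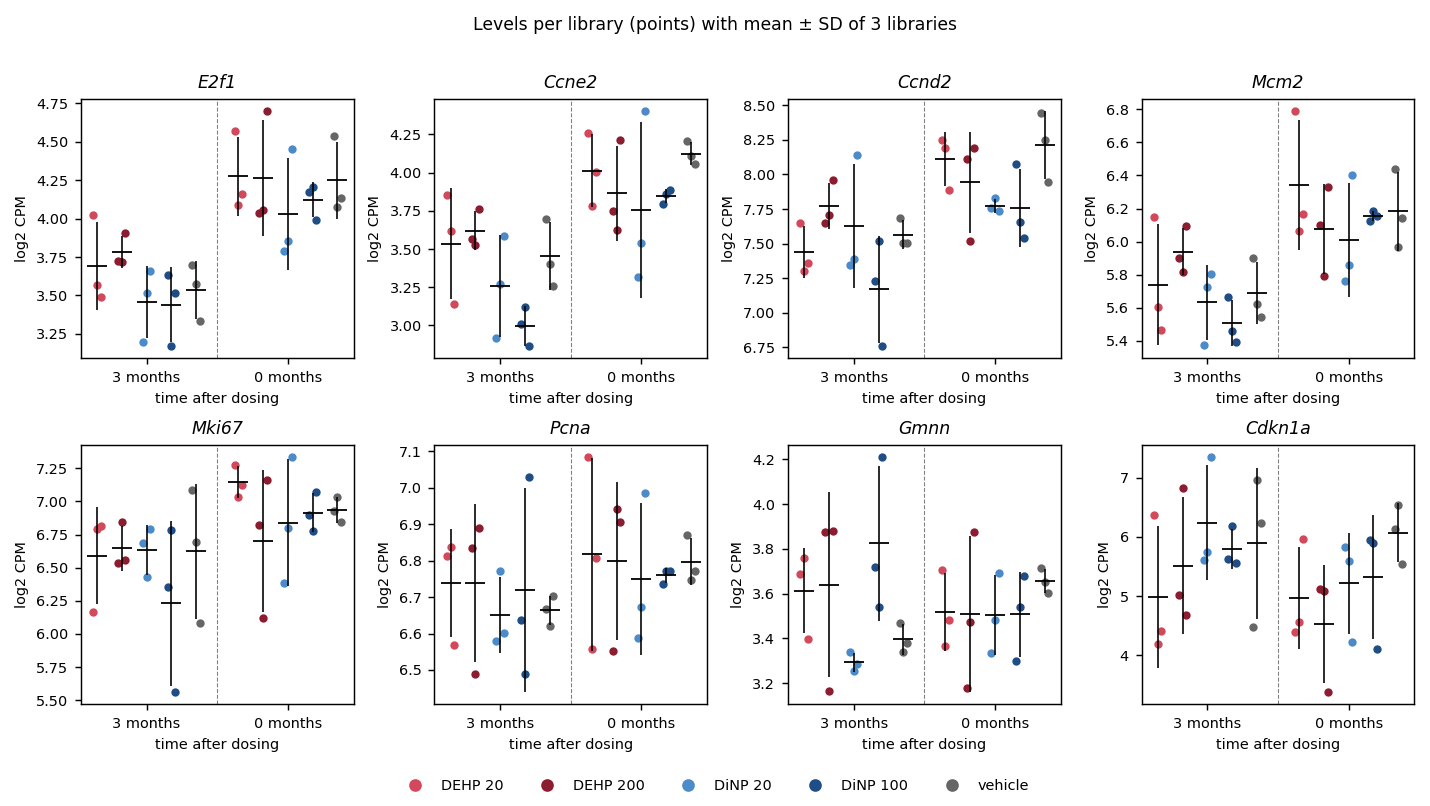
Levels of 8 of the genes in every library. Each panel plots log2 CPM (y axis) for the 3 months and 0 months collections (x axis), with 3 libraries per treatment as points coloured by treatment and their mean ± SD as black lines. E2f1, Ccne2, Ccnd2 and Mcm2 sit lower at 3 months, while Pcna, Gmnn and Cdkn1a overlap between the times.

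Of the 9 origin licensing genes, 8 fell, with a median of -0.37 log2 for the 9. The 6 subunits of the MCM2 to MCM7 helicase all passed. Mcm2 ran between 5.38 and 6.15 log2 CPM at 3 months (median 5.67), against 5.76 and 6.79 at 0 months (median 6.14), with a log2 fold change of -0.45 ± 0.09 (SE, limma adjusted p = 0.00231). Of its 15 libraries of 3 months, 9 lay below every library of 0 months. The other subunits had -0.43 ± 0.10 (Mcm5), -0.39 ± 0.09 (Mcm3), -0.27 ± 0.08 (Mcm6), -0.25 ± 0.07 (Mcm7) and -0.24 ± 0.07 (Mcm4), with adjusted p between 0.00491 (Mcm3) and 0.0252 (Mcm4).

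Mcm5, whose promoter window is printed above, had 5.76, 5.56 and 5.13 log2 CPM in DEHP 20 ovaries, 5.48, 5.40 and 5.90 in DEHP 200 ovaries, 5.09, 5.23 and 5.46 in DiNP 20 ovaries, 5.01, 5.06 and 5.23 in DiNP 100 ovaries and 5.43, 5.17 and 5.12 in vehicle ovaries at 3 months. Libraries of 0 months had 6.44, 5.67 and 5.76 log2 CPM in DEHP 20 ovaries, 5.63, 5.44 and 6.10 in DEHP 200 ovaries, 5.37, 5.42 and 6.09 in DiNP 20 ovaries, 5.67, 5.82 and 5.56 in DiNP 100 ovaries and 6.15, 5.48 and 5.79 in vehicle ovaries. The DiNP 100 and the vehicle ovaries of the 2 times did not overlap, and the other treatments did. Cdc6 and Cdt1 load the helicase onto origins, and they had log2 fold changes of -0.50 ± 0.14 and -0.37 ± 0.10 (limma adjusted p of 0.0162 for Cdc6 and 0.0108 for Cdt1). Gmnn encodes geminin, the inhibitor of CDT1, and it stood at 0.01 ± 0.09 (adjusted p = 0.924). Its level at 3 months was 3.69, 3.76 and 3.40 log2 CPM in DEHP 20 ovaries, 3.88, 3.16 and 3.88 in DEHP 200 ovaries, 3.34, 3.25 and 3.29 in DiNP 20 ovaries, 3.72, 3.54 and 4.21 in DiNP 100 ovaries and 3.47, 3.34 and 3.38 in vehicle ovaries. The libraries of 0 months gave 3.71, 3.37 and 3.48 log2 CPM in DEHP 20 ovaries, 3.18, 3.47 and 3.88 in DEHP 200 ovaries, 3.34, 3.48 and 3.69 in DiNP 20 ovaries, 3.30, 3.54 and 3.68 in DiNP 100 ovaries and 3.71, 3.65 and 3.60 in vehicle ovaries. Vehicle ovaries of 3 months lay below those of 0 months, and every other treatment overlapped between the times.

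Of the genes of DNA and nucleotide synthesis, Rrm2 and Tyms fell. Rrm2, a subunit of ribonucleotide reductase, had a log2 fold change of -0.48 ± 0.10 (SE, limma adjusted p = 0.00326). Tyms, which makes thymidylate, had -0.35 ± 0.08 (adjusted p = 0.00364), and 11 of its 15 libraries of 3 months lay below every library of 0 months. Pcna, the sliding clamp of DNA polymerases, had 6.81, 6.84 and 6.57 log2 CPM in DEHP 20 ovaries, 6.84, 6.49 and 6.89 in DEHP 200 ovaries, 6.58, 6.77 and 6.60 in DiNP 20 ovaries, 6.64, 6.49 and 7.03 in DiNP 100 ovaries and 6.67, 6.62 and 6.70 in vehicle ovaries at 3 months. The levels at 0 months were 7.09, 6.56 and 6.81 log2 CPM in DEHP 20 ovaries, 6.55, 6.94 and 6.91 in DEHP 200 ovaries, 6.59, 6.67 and 6.98 in DiNP 20 ovaries, 6.74, 6.77 and 6.77 in DiNP 100 ovaries and 6.87, 6.75 and 6.77 in vehicle ovaries. Its libraries of the 2 times overlapped except in the vehicle ovaries, and its log2 fold change was -0.08 ± 0.06 (limma adjusted p = 0.386).

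Of the 7 mitotic kinases and cyclins, 6 fell, with a median of -0.34 log2 for the 7. Ccnb1, cyclin B1, had 5.09, 5.15 and 5.26 log2 CPM in DEHP 20 ovaries, 5.07, 5.38 and 4.93 in DEHP 200 ovaries, 5.11, 4.92 and 5.43 in DiNP 20 ovaries, 4.52, 5.31 and 4.61 in DiNP 100 ovaries and 5.78, 5.11 and 4.50 in vehicle ovaries at 3 months. At 0 months it had 5.96, 5.70 and 5.57 log2 CPM in DEHP 20 ovaries, 5.32, 5.001 and 6.01 in DEHP 200 ovaries, 5.03, 5.04 and 5.65 in DiNP 20 ovaries, 5.53, 5.32 and 5.05 in DiNP 100 ovaries and 5.55, 5.37 and 5.22 in vehicle ovaries. In the DEHP 20 ovaries the times did not overlap, and in the other treatments they did. The log2 fold change of Ccnb1 was -0.34 ± 0.12 (SE, limma adjusted p = 0.0496), just inside the threshold. Plk1, a kinase of mitotic entry and spindle assembly, had -0.40 ± 0.12 (adjusted p = 0.0247). The others were Aurkb at -0.36, Ccna2 at -0.34, Aurka at -0.32 and Cdk1 at -0.30, while Ccnb2 at -0.30 ± 0.12 did not pass (adjusted p = 0.0725).

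Of the 5 genes of the spindle checkpoint and the anaphase promoting complex, Bub1 and Mad2l1, both of the checkpoint, fell. Their log2 fold changes were -0.44 ± 0.12 and -0.25 ± 0.08 (SE, limma adjusted p of 0.0149 for Bub1 and 0.033 for Mad2l1). Bub1b, also of the checkpoint, stood at -0.31 ± 0.14 (adjusted p = 0.121) and Ube2c, the ubiquitin conjugating enzyme of the complex, at -0.35 ± 0.13 (adjusted p = 0.0603). Cdc20, the activator that the checkpoint holds back, had 4.65, 4.95 and 4.90 log2 CPM in DEHP 20 ovaries, 4.91, 4.93 and 4.80 in DEHP 200 ovaries, 4.85, 4.60 and 5.04 in DiNP 20 ovaries, 4.42, 5.04 and 4.84 in DiNP 100 ovaries and 5.40, 4.87 and 4.01 in vehicle ovaries at 3 months. Its level at 0 months was 5.80, 5.24 and 5.18 log2 CPM in DEHP 20 ovaries, 4.94, 4.89 and 5.60 in DEHP 200 ovaries, 4.53, 4.49 and 5.17 in DiNP 20 ovaries, 5.22, 4.84 and 4.73 in DiNP 100 ovaries and 5.25, 4.92 and 4.93 in vehicle ovaries. Only the DEHP 20 ovaries did not overlap between the times, and the log2 fold change was -0.24 ± 0.12 (limma adjusted p = 0.167).

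Of the 11 genes of chromosomes, spindle and cytokinesis, 9 fell, with a median of -0.36 log2 for the 11. Top2a, the topoisomerase that untangles sister chromosomes, had 6.76, 7.18 and 6.95 log2 CPM in DEHP 20 ovaries, 7.05, 7.20 and 6.87 in DEHP 200 ovaries, 6.92, 6.86 and 6.96 in DiNP 20 ovaries, 6.54, 7.12 and 5.99 in DiNP 100 ovaries and 7.43, 7.01 and 6.35 in vehicle ovaries at 3 months. In the 0 month libraries it had 7.63, 7.14 and 7.55 log2 CPM in DEHP 20 ovaries, 7.17, 6.88 and 7.65 in DEHP 200 ovaries, 6.62, 6.99 and 7.61 in DiNP 20 ovaries, 7.16, 7.09 and 7.28 in DiNP 100 ovaries and 7.49, 7.45 and 7.16 in vehicle ovaries. The DiNP 100 ovaries of 3 months held both the lowest value, 5.99, and one of 7.12, within the range of 0 months. The log2 fold change was -0.38 ± 0.12 (SE, limma adjusted p = 0.0293). Birc5, survivin of the chromosomal passenger complex, had -0.42 ± 0.11 (adjusted p = 0.0119), and Cenpf, a kinetochore protein, -0.36 ± 0.10 (adjusted p = 0.0136).

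The spindle motors Kif20a and Kif11 had -0.38 and -0.37, the spindle assembly factors Tpx2 and Nusap1 -0.33 and -0.32, and the cytokinesis genes Ect2 and Prc1 -0.35 and -0.34, all past the threshold. Mki67, which encodes the proliferation marker Ki-67, had 6.17, 6.79 and 6.82 log2 CPM in DEHP 20 ovaries, 6.54, 6.84 and 6.56 in DEHP 200 ovaries, 6.69, 6.43 and 6.79 in DiNP 20 ovaries, 6.36, 6.78 and 5.56 in DiNP 100 ovaries and 7.09, 6.70 and 6.08 in vehicle ovaries at 3 months. At 0 months it had 7.27, 7.03 and 7.12 log2 CPM in DEHP 20 ovaries, 6.82, 6.12 and 7.16 in DEHP 200 ovaries, 6.38, 6.80 and 7.34 in DiNP 20 ovaries, 6.90, 6.77 and 7.07 in DiNP 100 ovaries and 6.93, 7.04 and 6.84 in vehicle ovaries. The DEHP 20 ovaries of the 2 times did not overlap, and the others did. Mki67 and Cenpe, a kinetochore motor, lay just outside the threshold at -0.36 ± 0.13 (limma adjusted p = 0.0506) and -0.34 ± 0.14 (adjusted p = 0.0845).

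Which members passed depended on the library left out. Over the 30 fits that each left out 1 library, 20 to 38 members passed, and the genes passing moved with them, from 14.6% of all genes tested without vehicle replicate 3 of 3 months (20 members) to 29.8% without DEHP 200 replicate 2 of 0 months (38 members). The count was 20 without DEHP 200 replicate 3 or DiNP 20 replicate 3 of 0 months, or without vehicle replicate 3 or DEHP 200 replicate 3 of 3 months, and 21 without DiNP 100 replicate 1 of 0 months, or without DiNP 20 replicate 2 or DiNP 100 replicate 1 of 3 months. The same 20 members passed in all 40 alternatives run: Ccnd2, Ccne1, Ccne2, E2f1, Foxm1, Cdc6, Cdt1, Mcm2 to Mcm7, Rrm2, Tyms, Plk1, Bub1, Birc5, Kif20a and Cenpf. All 8 origin licensing genes that fell were among them. Of the other mitotic members that fell, Top2a passed in 36 of 40, Ect2 in 31, Mad2l1 in 30, Aurkb in 28 and Ccna2 in 27. Kif11 passed in 26, Aurka in 22, Cdk1 in 21, Prc1 in 19, Nusap1 in 15, Tpx2 in 14 and Ccnb1 in 13.

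Within single treatments most members were lower at 3 months and no member passed. At 3 months, 39 of 43 members were lower than at 0 months in DEHP 20 ovaries (median -0.48 log2), 39 in DEHP 200 ovaries (-0.20), 38 in DiNP 20 ovaries (-0.20), 40 in DiNP 100 ovaries (-0.49) and 41 in vehicle ovaries (-0.32). In the DEHP 200 and DiNP 20 ovaries this rested on 1 library of 0 months each. Without DEHP 200 replicate 3 of 0 months the DEHP 200 median was -0.03 with 27 members lower, and without replicate 2 it was -0.39. Without DiNP 20 replicate 3 of 0 months the DiNP 20 median was -0.01 with 22 members lower, and without replicate 1 it was -0.35. In vehicle ovaries the median was -0.58 without replicate 1 of 3 months and -0.10 without replicate 3, whereas in DEHP 20 ovaries it stayed between -0.54 and -0.38 and in DiNP 100 ovaries between -0.60 and -0.38 when any 1 library was left out. In these 5 comparisons limma called 0 members and 3, 2, 3, 7 and 1 genes of 14740 (0.0204%, 0.0136%, 0.0204%, 0.0475% and 0.00678%). At an unadjusted p under 0.05, 21 members were lower in DEHP 20 ovaries (5.82% of all genes), 5 in DEHP 200 ovaries (4.78%), 4 in DiNP 20 ovaries (3.02%), 20 in DiNP 100 ovaries (9.37%) and 11 in vehicle ovaries (3.88%). The 3 libraries of 3 months lay below the 3 of 0 months for 29 members in DEHP 20 ovaries (11.3% of all genes), 5 in DEHP 200 ovaries (6.23%), 2 in DiNP 20 ovaries (7.12%), 24 in DiNP 100 ovaries (8.02%) and 12 in vehicle ovaries (7.11%). Ccnd3 was the 1 member with libraries of 3 months all above, in vehicle ovaries (7.61%).

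E2f1 was below in all 5 treatments, with log2 fold changes of -0.58 in DEHP 20, -0.48 in DEHP 200, -0.58 in DiNP 20, -0.68 in DiNP 100 and -0.71 in vehicle ovaries (SE 0.21 each, limma adjusted p between 0.169 and 0.529). The 12 members below in vehicle ovaries were Ccnd2, Ccne1, Ccne2, E2f1, Cdc6, Gmnn, Mcm2, Mcm3, Mcm5, Pcna, Rrm2 and Tyms, all of G1 and S phase. The mitotic members Mki67, Cdk1 and Top2a overlapped there only through vehicle replicate 1 of 3 months. It had 7.09, 5.82 and 7.43 log2 CPM of them, above the lowest vehicle values of 0 months, 6.84, 5.43 and 7.16. In DEHP 200 ovaries the smallest p was that of Birc5, with 4.26, 4.49 and 4.17 log2 CPM at 3 months, against 4.57, 4.81 and 5.48 at 0 months, a log2 fold change of -0.65 (limma adjusted p = 0.366) between groups that did not overlap. In DEHP 20 ovaries the 29 included all 7 mitotic kinases and cyclins and all 5 checkpoint genes. The tests of a difference in effect between the times found 0 members and 0 genes in each of the 4 treatments (limma). At an unadjusted p under 0.05 the only member was Gmnn for DiNP 100, with a difference of 0.58 ± 0.27 (SE, limma adjusted p = 0.997), where 0.977% of all genes were higher with such a p. For the others no member had one, and 1.96% of all genes did for DEHP 20, 2.54% for DEHP 200 and 1.49% for DiNP 20. The members with the smallest p there were Gmnn for DEHP 20 at 0.36, Mcm4 for DEHP 200 at 0.48 and Ccnd2 for DiNP 20 at 0.50.

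Libraries differed from one another across the members together. Relative to each gene's own median over the 30 libraries, the number of the 43 members above it ran between 3 and 30 in the libraries of 3 months (median 11), against 3 and 42 at 0 months (median 36). Of the vehicle libraries of 3 months, 2 stood at opposite ends, replicate 1 with 30 members above and replicate 3 with 3, and their mean differences from the medians were 0.21 and -0.50 log2. At 0 months DEHP 200 replicate 3 had 41 members above and replicate 2 had 11 (mean differences 0.52 and -0.13), and DiNP 20 replicate 3 had 41, against 3 and 9 for replicates 1 and 2. Marker genes of ovarian cell types differed between these libraries too. The 8 corpus luteum markers summed to 15750 CPM in vehicle replicate 1 and 49980 CPM in replicate 3 of 3 months, and the 10 granulosa cell markers to 6907 and 3960 CPM. At 0 months the corpus luteum sum was 4341 CPM in DEHP 200 replicate 3 and 41620 CPM in replicate 2, and the granulosa sum 8813 and 6037 CPM. In the DiNP 20 ovaries of 0 months, replicates 1, 2 and 3 had corpus luteum sums of 28260, 22010 and 19760 CPM and granulosa sums of 4989, 6375 and 6314 CPM. The part of these markers in the members' levels was not tested. The mean level of the 43 members had an SD of 0.22 log2 between libraries of 1 group.

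**Figure D3:**
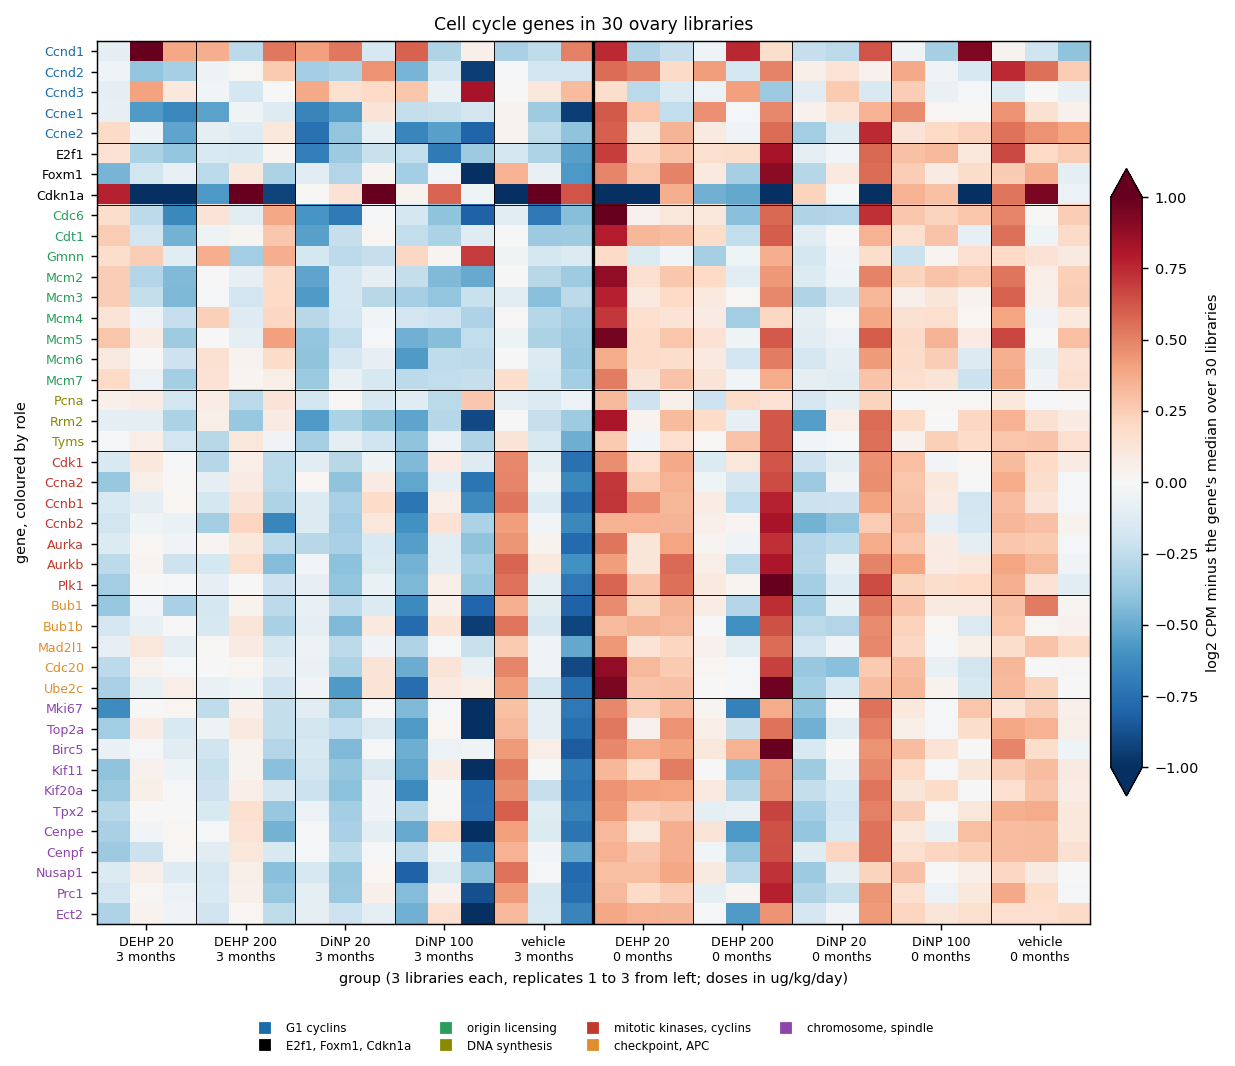
The 43 genes (rows, labels coloured by role) in the 30 libraries (columns, 3 per group, 3 months left of 0 months). Colour gives log2 CPM minus the gene's own median over the 30 libraries, in log2, cut at 1 in either direction. Most cells are blue at 3 months and red at 0 months, and vehicle replicates 1 and 3 of 3 months differ in the mitotic rows.

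Licensing and mitotic genes did not always move together in a library. In vehicle replicate 1 of 3 months the 7 mitotic kinases and cyclins stood 0.50 log2 above their medians and the 9 licensing genes at -0.02. In DEHP 200 replicate 3 of 3 months the mitotic genes stood at -0.34 and the licensing genes at 0.25, and in DEHP 20 replicate 1 of 3 months at -0.23 and 0.20. At 0 months, by contrast, DEHP 20 replicate 1 was high in both, with 0.54 for the mitotic and 0.70 for the licensing genes.

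**Figure D4:**
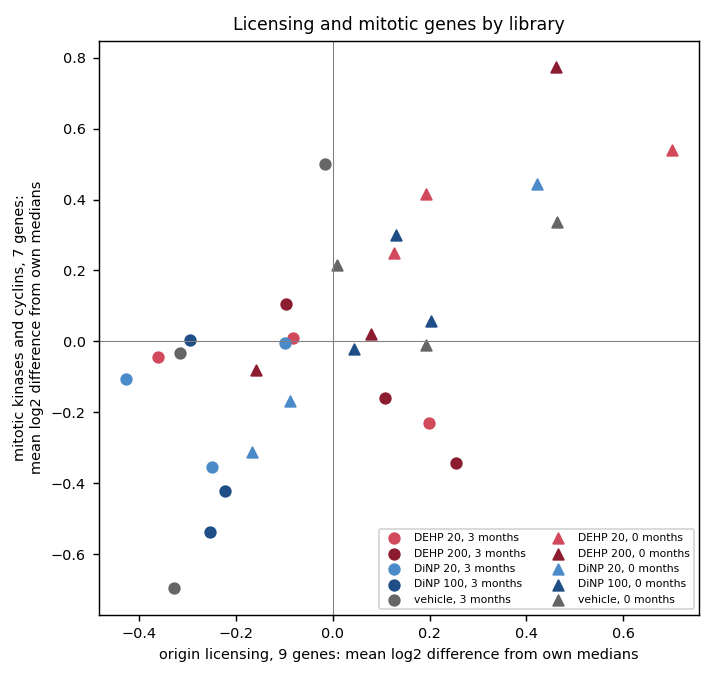
Licensing and mitotic genes in each library. The x axis gives the mean log2 difference of the 9 licensing genes from their own medians and the y axis that of the 7 mitotic kinases and cyclins, with 1 point per library, circles for 3 months and triangles for 0 months, coloured by treatment. Vehicle replicate 1 of 3 months lies at 0.50 on the y axis and -0.02 on the x axis, and vehicle replicate 3 at the bottom, at -0.70.

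Markers of several ovarian cell types differed between the times as well, beside 9.63% of all genes tested called lower and 10.6% higher. All 10 granulosa cell markers were lower at 3 months and 9 of 10 passed (limma, median -0.53 log2), with a summed level of 3480 to 6907 CPM at 3 months, against 4989 to 8813 CPM at 0 months. All 10 oocyte markers were lower and 9 passed (median -0.74), with sums of 166.0 to 442.6 CPM at 3 months and 286.9 to 682.6 CPM at 0 months. All 6 macrophage markers were higher and passed (median 0.68), with sums of 157.9 to 362.6 CPM at 3 months and 89.01 to 181.1 CPM at 0 months. Of 8 markers of the corpus luteum, 7 were higher and 2 passed (median 0.79), with sums of 11690 to 50240 CPM at 3 months and 4341 to 41620 CPM at 0 months. None of these markers was at the lowest value of the table in any library. Of the other lists, smooth muscle markers had 3 of 5 passing lower, theca and stroma markers 2 lower and 1 higher of 6, and surface epithelium markers 1 higher of 7. The 1 theca and stroma marker and the 1 surface epithelium marker called higher are near the share of all genes, 10.6%. No tested marker of endothelium, erythroid cells, oviduct epithelium or adipocytes passed. The part of these cell types in the lower level of the cell cycle genes was not tested.

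Most other genes of the same pathways were lower at 3 months as well, where 9.63% of all genes tested were called lower and 10.6% higher. Of 35 further replication genes, 33 were lower at 3 months and 23 passed lower, with 0 higher (limma, median -0.25 log2). Tk1, thymidine kinase, had -0.55 ± 0.08 (SE, adjusted p = 0.000296), Orc1, a subunit of the origin recognition complex, -0.61 ± 0.11 (adjusted p = 0.00147), Pole, the leading strand polymerase, -0.57 ± 0.11 (adjusted p = 0.00159) and Uhrf1, which guides maintenance of DNA methylation, -0.66 ± 0.11 (adjusted p = 0.000426). Of the 6 origin recognition subunits, Orc1 and Orc6 passed and Orc2 to Orc5 did not, with values between -0.08 and 0.04. Of 30 further genes of mitosis all were lower and 20 passed (median -0.34), among them Kif4, a chromosome motor, at -0.45 ± 0.11 (adjusted p = 0.00631).

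Of 30 genes of CDKs, their inhibitors and the RB and E2F families, 16 fell and 3 rose (median -0.20 log2). The 3 of 30 that rose are near the share of all genes called higher, 10.6%, and the 16 that fell stand beside 9.63% called lower. Mybl2, which encodes B-MYB, had -0.67 ± 0.11 (SE, limma adjusted p = 0.000378), E2f8 -0.59 ± 0.11 (adjusted p = 0.0015), E2f2 -0.53 ± 0.10 (adjusted p = 0.00126) and Cdk4, the partner of the D cyclins, -0.27 ± 0.07 (adjusted p = 0.0108). The 3 that rose were the INK4 inhibitors Cdkn2a at 1.69 ± 0.38 (adjusted p = 0.00481) and Cdkn2b at 1.77 ± 0.53 (adjusted p = 0.0221), and Rbl2, the pocket protein p130 of resting cells, at 0.29 ± 0.07 (adjusted p = 0.00738). Rb1 at 0.06 and E2f4 at -0.03 did not pass. These lists and their members were chosen with earlier results of these data known.

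No member passed in any comparison of treated with vehicle ovaries. In each of the 8 comparisons of a treated group with the vehicle ovaries of the same time, limma called 0 of the 43 members and 0 of the 14740 genes (0%). The 4 comparisons at a time share the 3 vehicle libraries, so they are set side by side here and not counted as separate evidence. The F-test over the 4 treated groups likewise called 0 members and 0 genes at each time. At an unadjusted p under 0.05 it gave 588 genes and 0 members at 3 months, and 325 genes and 0 members at 0 months. The smallest F-test p among members was 0.0816 for Gmnn at 3 months (adjusted p = 0.957) and 0.165 for Ccnd2 at 0 months (adjusted p = 1).

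**Figure D5:**
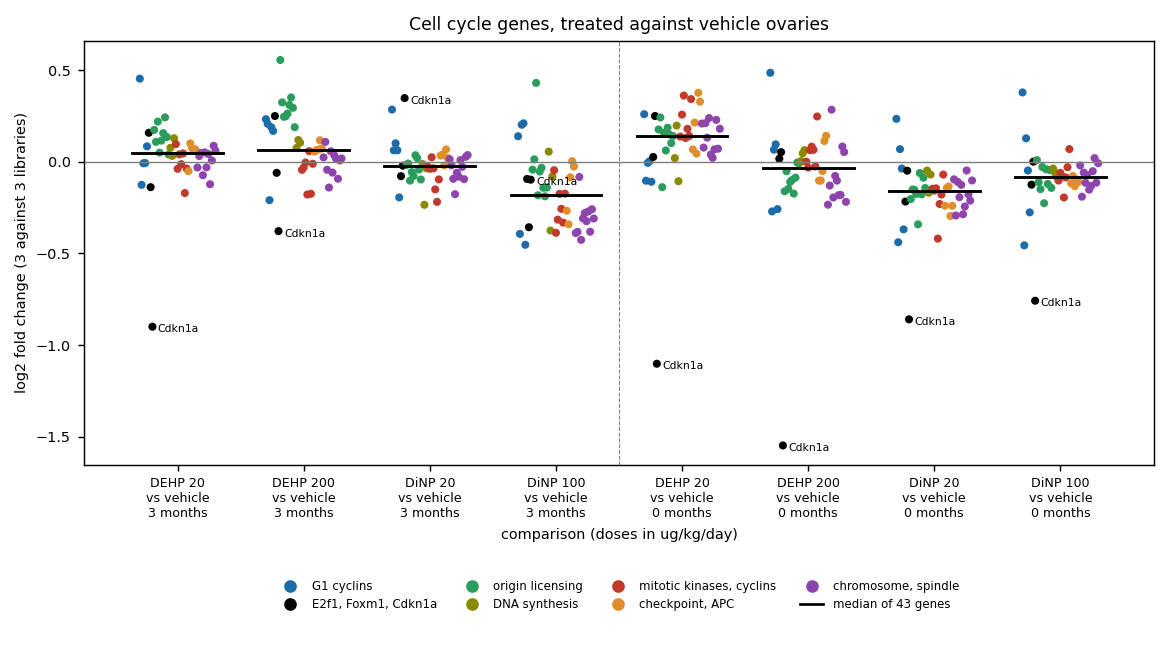
Fold changes of the 43 genes, treated over vehicle ovaries. The y axis gives the log2 fold change of 3 treated over 3 vehicle libraries, for the 4 treated groups of 3 months and of 0 months (x axis), with points coloured by role and a black bar at the median of the 43 genes. Medians lie between -0.18 (DiNP 100 at 3 months) and 0.14 (DEHP 20 at 0 months), and Cdkn1a is the lowest point in 6 of the 8 groups.

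At 0 months, 37 of 43 members were higher in DEHP 20 than in vehicle ovaries, with a median of 0.14 log2 (all genes tested 0.0048). No member had an unadjusted p under 0.05, against 2.37% of all genes, and 6 members had DEHP 20 libraries all above the vehicle libraries (4.6% of all genes). These were Ccnb1, Ccnb2, Bub1b, Kif20a, Nusap1 and Ect2, all mitotic. The median was 0.04 without DEHP 20 replicate 1, with 24 members higher, 0.22 without DEHP 20 replicate 2 and 0.08 without vehicle replicate 3. The 2 members with the smallest p were Cdkn1a, at -1.10 ± 0.74 (SE, limma adjusted p = 1), and Cdc20, at 0.38 ± 0.27 (adjusted p = 1). Cdc20 had 5.80, 5.24 and 5.18 log2 CPM in DEHP 20 ovaries, against 5.25, 4.92 and 4.93 in vehicle ovaries, so that vehicle replicate 1 lay above 2 of the DEHP 20 libraries.

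In DEHP 200 ovaries at 0 months, 18 members were higher and 25 lower than in vehicle ovaries (median -0.03 log2, all genes tested -0.0016). Without DEHP 200 replicate 3 the median was -0.25 with 39 members lower, and it was above 0 with its replicate 2 left out (0.11, with 35 higher), its replicate 1 (0.02) or vehicle replicate 1 (0.06). Leaving out vehicle replicate 3 gave -0.08. Cdkn1a had 5.12, 5.09 and 3.37 log2 CPM in DEHP 200 ovaries, against 6.14, 6.54 and 5.54 in vehicle ovaries. All 3 DEHP 200 libraries were lower, with a log2 fold change of -1.55 ± 0.74 (SE, limma adjusted p = 0.914). It was the 1 member of 43 with an unadjusted p under 0.05 (3.31% of all genes were lower with such a p) and the 1 whose DEHP 200 libraries were all below (4.25%). Next came Ccnd1 at 0.49 ± 0.37, with 4.14, 4.93 and 4.36 log2 CPM in DEHP 200 ovaries and 4.21, 3.98 and 3.78 in vehicle ovaries, overlapping (adjusted p = 0.914).

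At 0 months 41 of 43 members were lower in DiNP 20 than in vehicle ovaries, with a median of -0.16 log2 (all genes tested -0.0012). The median was -0.37 without DiNP 20 replicate 3, -0.03 without DiNP 20 replicate 1, with 26 members lower, -0.10 without DiNP 20 replicate 2 and -0.09 without vehicle replicate 1. No member had an unadjusted p under 0.05 (2.08% of all genes). Ccnd2 had 7.75, 7.83 and 7.74 log2 CPM in DiNP 20 ovaries, against 8.44, 8.25 and 7.95 in vehicle ovaries. The DiNP 20 libraries were all below, as for 4.67% of all genes, and the log2 fold change was -0.44 ± 0.21 (SE, limma adjusted p = 1). Mcm3 had -0.34 ± 0.20 (adjusted p = 1), with 5.58, 5.72 and 6.22 log2 CPM in DiNP 20 ovaries and 6.47, 5.94 and 6.13 in vehicle ovaries, groups that overlapped through DiNP 20 replicate 3.

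In DiNP 100 ovaries at 0 months 37 members were lower and 6 higher than in vehicle ovaries (median -0.08 log2, all genes tested 0.0127). Leaving out 1 library moved the median to between -0.15 (without vehicle replicate 3) and -0.01 (without vehicle replicate 1, with 23 members lower), and to -0.03 without DiNP 100 replicate 3 and -0.14 without DiNP 100 replicate 1. Ccnd2 had 8.07, 7.66 and 7.54 log2 CPM in DiNP 100 ovaries, overlapping the vehicle values through 1 library, with a log2 fold change of -0.46 ± 0.21 (SE, limma adjusted p = 1). It was the 1 member with an unadjusted p under 0.05 (0.95% of all genes were lower with such a p). Ccne2 had 3.79, 3.86 and 3.89 log2 CPM in DiNP 100 ovaries, all below the 4.21, 4.11 and 4.06 in vehicle ovaries (4.26% of all genes), at -0.28 ± 0.23 (adjusted p = 1). Averaged over the 4 treated groups, Ccnd2 was at -0.32 ± 0.17 (adjusted p = 1).

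At 3 months, 29 members were higher in DEHP 20 than in vehicle ovaries (median 0.05 log2, all genes tested 0.0036), and none had an unadjusted p under 0.05 (1.68% of all genes). The smallest p were those of Ccnd1, at 0.45 ± 0.37 (SE, limma adjusted p = 1), and Cdkn1a, at -0.90 ± 0.74 (adjusted p = 1). Ccnd1 had 4.08, 5.18 and 4.56 log2 CPM in DEHP 20 ovaries, against 3.85, 3.92 and 4.69 in vehicle ovaries. The 2 groups overlapped, as they did for every member in this comparison.

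In DEHP 200 ovaries at 3 months, 30 members were higher than in vehicle ovaries (median 0.06 log2, all genes tested -0.0093), including all 9 origin licensing genes (median 0.29, and 0.20 to 0.38 with all 9 higher when any 1 of the 6 libraries was left out). No member had an unadjusted p under 0.05 (1.44% of all genes). Mcm4 had 6.07, 5.70 and 6.03 log2 CPM in DEHP 200 ovaries, against 5.84, 5.54 and 5.49 in vehicle ovaries, overlapping, at 0.31 ± 0.17 (SE, limma adjusted p = 1). Cdc6 had 3.57, 3.32 and 3.83 log2 CPM in DEHP 200 ovaries, against 3.32, 2.72 and 3.01 in vehicle ovaries. The lowest DEHP 200 value was barely above the highest vehicle value, and the log2 fold change was 0.55 ± 0.31 (adjusted p = 1). Cdc6, E2f1 and Mcm6 were the 3 members whose DEHP 200 libraries were all above (2.81% of all genes), while the 7 mitotic kinases and cyclins had a median of -0.03 (0.25 without vehicle replicate 1 and -0.32 without vehicle replicate 3). The 9 licensing genes were all higher in DEHP 20 ovaries too, each by less, against the same 3 vehicle libraries.

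In DiNP 20 ovaries at 3 months, 16 members were higher and 27 lower than in vehicle ovaries (median -0.02 log2, all genes tested 0.0011), with none at an unadjusted p under 0.05 (1.52% of all genes). Rrm2 had 4.32, 4.57 and 4.48 log2 CPM in DiNP 20 ovaries, against 4.88, 4.66 and 4.53 in vehicle ovaries, overlapping, at -0.23 ± 0.23 (SE, limma adjusted p = 1). Ccne2 was at -0.19 ± 0.23 (adjusted p = 1), with 2.92, 3.27 and 3.58 log2 CPM in DiNP 20 ovaries.

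In DiNP 100 ovaries at 3 months, 36 members were lower and 7 higher than in vehicle ovaries, with a median of -0.18 log2 (all genes tested 0.0108). All 11 chromosome and spindle genes were lower (median -0.31), as were all 7 mitotic kinases and cyclins (median -0.26), whereas the 9 licensing genes had a median of -0.05. The lower mitotic genes rested on vehicle replicate 1. Without it 4 of the 11 chromosome and spindle genes were higher (median -0.06), 5 of the 7 mitotic kinases and cyclins were higher (median 0.015) and the median of the 43 members was 0.0046, with 23 higher. The median of the 43 was -0.33 without DiNP 100 replicate 2 and -0.10 without DiNP 100 replicate 3. Gmnn, geminin (chr13:24751845-24761937), had 3.72, 3.54 and 4.21 log2 CPM in DiNP 100 ovaries, against 3.47, 3.34 and 3.38 in vehicle ovaries. All 3 DiNP 100 libraries were higher (2.77% of all genes), with a log2 fold change of 0.43 ± 0.19 (SE, limma adjusted p = 0.518). Gmnn was the 1 member with an unadjusted p under 0.05, while 4.37% of all genes were higher with such a p. Ccne2 had 3.01, 3.12 and 2.86 log2 CPM in DiNP 100 ovaries, all below the 3.69, 3.40 and 3.26 in vehicle ovaries (3.05% of all genes), at -0.45 ± 0.23 (adjusted p = 0.518). Without DiNP 100 replicate 2, limma called 633 genes (4.29%) in this comparison and still 0 members.

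Medians at 3 months turned on single vehicle libraries. Without vehicle replicate 1, in which mitotic genes were high, the median of the 43 members was 0.25 log2 for DEHP 20, 0.29 for DEHP 200, 0.16 for DiNP 20, 0.0046 for DiNP 100 and 0.18 for the mean of the 4 treated groups. Without vehicle replicate 3, in which they were low, the medians were -0.22 for DEHP 20, -0.21 for DEHP 200, -0.26 for DiNP 20, -0.44 for DiNP 100 and -0.30 for the mean of the 4. Leaving out 1 treated library moved the medians of the first 3 less, to between 0.01 (without replicate 2) and 0.07 (without replicate 1) for DEHP 20, between -0.02 (without replicate 2) and 0.10 (without replicate 3) for DEHP 200, and between -0.11 (without replicate 3) and 0.04 (without replicate 2) for DiNP 20. With all libraries the median for the mean of the 4 treated groups was -0.04 at 3 months, with 17 members higher and 26 lower, and -0.04 at 0 months, with 12 higher and 31 lower. Limma called 0 members for either mean, with none at an unadjusted p under 0.05 (1.15% of all genes at 3 months, 2.55% at 0 months).

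DEHP and DiNP share the dose of 20 ug/kg/day, which gives 1 matched pair at each of 2 times. At 0 months 40 of 43 members were higher in DEHP 20 than in DiNP 20 ovaries, with a median of 0.32 log2 (all genes tested 0.0045). The median was 0.54 without DiNP 20 replicate 3 and 0.15 without DiNP 20 replicate 1, and lay between 0.24 and 0.37 without any other 1 library. Limma called 0 members and 0 genes (0%), and 2 members had an unadjusted p under 0.05, Cdc20 and Ccnb2, both higher (1.08% of all genes). Cdc20 (chr4:118432901-118437343) had 5.80, 5.24 and 5.18 log2 CPM in DEHP 20 ovaries, against 4.53, 4.49 and 5.17 in DiNP 20 ovaries. The groups did not overlap, and the difference was 0.67 log2 (95% interval 0.11 to 1.23, limma adjusted p = 1). Ccnb2 had 5.03, 5.02 and 5.02 log2 CPM in DEHP 20 ovaries and 4.21, 4.28 and 4.93 in DiNP 20 ovaries, a difference of 0.55 (interval 0.0011 to 1.10, adjusted p = 1). Ccnd2 and Nusap1 were the other members with DEHP 20 libraries all above (4.84% of all genes).

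For most members the interval of this difference held 0, as for Mki67 (0.30, interval -0.30 to 0.90), Top2a (0.37, interval -0.19 to 0.93), E2f1 (0.24, interval -0.19 to 0.67) and Pcna (0.07, interval -0.23 to 0.37). At 3 months 34 members were higher in DEHP 20 than in DiNP 20 ovaries (median 0.09 log2, all genes tested 3e-04), and the median was 0.015 without DiNP 20 replicate 2, 0.03 without DEHP 20 replicate 2 and 0.15 without DiNP 20 replicate 3. Limma called 0 members and 0 genes (0%), with 0 members at an unadjusted p under 0.05 (2.9% of all genes). Cdkn1a had 6.37, 4.19 and 4.41 log2 CPM in DEHP 20 ovaries, against 5.61, 5.74 and 7.36 in DiNP 20 ovaries, overlapping, with a difference of -1.25 (interval -2.77 to 0.28, limma adjusted p = 1). Cdc20 differed by 0.0034 (interval -0.55 to 0.56). Gmnn, Rrm2 and Aurka had DEHP 20 libraries all above (5.09% of all genes), with differences of 0.32, 0.27 and 0.20. A p that misses the threshold does not show that the compounds act alike, and these intervals reach fold changes of the size seen over time.

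Between doses of 1 compound limma called 0 members and 0 genes (0%) in all 4 comparisons. DEHP 200 against DEHP 20 at 0 months had 38 members lower (median -0.17 log2, but -0.40 with DEHP 200 replicate 3 left out, -0.02 with its replicate 2 left out, and, of the DEHP 20 libraries, -0.05 with replicate 1 and -0.27 with replicate 2 left out), and Mcm4 was the 1 with an unadjusted p under 0.05 (2.23% of all genes were lower with such a p). Mcm4 had 5.91, 5.48 and 6.04 log2 CPM in DEHP 200 ovaries, against 6.54, 5.99 and 5.96 in DEHP 20 ovaries, overlapping, at -0.36 ± 0.17 (SE, limma adjusted p = 0.945). At 3 months the same doses had 26 members higher and 17 lower (median 0.03, between -0.03 and 0.09 when 1 library was left out) and none at an unadjusted p under 0.05 (0.957% of all genes), with Ccnd2 closest at 0.33 ± 0.21 (adjusted p = 1).

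DiNP 100 against DiNP 20 at 0 months had 39 members higher (median 0.09 log2, but -0.06 without DiNP 20 replicate 1 and 0.30 without DiNP 20 replicate 3) and none at an unadjusted p under 0.05 (0.583% of all genes), and Ccnb2 came closest, at 0.22 ± 0.26 (limma adjusted p = 1). It had 5.003, 4.59 and 4.50 log2 CPM in DiNP 100 ovaries, against 4.21, 4.28 and 4.93 in DiNP 20 ovaries, overlapping. At 3 months 36 members were lower in DiNP 100 than in DiNP 20 ovaries (median -0.14, between -0.23 without DiNP 100 replicate 2 and -0.06 without DiNP 20 replicate 3), and 2 had an unadjusted p under 0.05, Gmnn higher (5.96% of all genes) and Ccnd2 lower (6.21%). Gmnn had 3.72, 3.54 and 4.21 log2 CPM in DiNP 100 ovaries, against 3.34, 3.25 and 3.29 in DiNP 20 ovaries. The DiNP 100 libraries were all above (3.9% of all genes), and the difference was 0.53 ± 0.19 (SE, limma adjusted p = 0.405). Without DiNP 100 replicate 2 it was 0.67, and Gmnn was the 1 member to pass (adjusted p = 0.0482), among 1336 genes called (9.06%). Ccnd2 had 7.23, 7.52 and 6.76 log2 CPM in DiNP 100 ovaries, against 7.35, 7.39 and 8.14 in DiNP 20 ovaries, overlapping, at -0.46 ± 0.21 (adjusted p = 0.405).

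No gene of the wider lists passed in the treated comparisons either. In the lists of 35 replication, 30 mitosis, 30 CDK, inhibitor and RB and 16 p53 target genes, limma called 0 in each of the 8 (0% of all genes). The smallest unadjusted p of the replication list was that of Pole in DiNP 100 ovaries at 3 months, at -0.73 ± 0.24 (SE, adjusted p = 0.518). In the CDK list it was E2f7, an E2F repressor, in the same comparison, at -0.64 ± 0.24 (adjusted p = 0.518), and, among higher genes, the inhibitory kinase Wee1 in DEHP 20 ovaries at 0 months, at 0.29 ± 0.12 (adjusted p = 1). Rpa1, of the single strand binding protein, had 0.21 ± 0.09 in DEHP 200 ovaries at 3 months (adjusted p = 1). In the mitosis list Smc2 and Bub3 came first, at -0.35 ± 0.18 and 0.22 ± 0.13, both in DiNP 100 ovaries at 3 months (adjusted p of 0.518 and 0.539).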

How the data were processed

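Whole ovary RNA libraries were made with a stranded TruSeq mRNA kit and read on a HiSeq 4000 for 101 cycles on one lane, per the labels' protocols. The submitters' processing notes name FastQC 0.11.8, Salmon 0.11.3, edgeR, R 3.5.2 and build GRCm38.p6. The only file, deposited by the authors, gives log2 CPM for 18022 genes in the 30 libraries and was used as it stands. How it was scaled is not given in the sources used here. On the CPM scale the libraries summed to between 907668 and 1164842. Whole reads could not be recovered from it (5.78 to 11.22% of low values were whole within 0.02). Count tests were therefore not used, no counting intervals are given, and the depth is not known.

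The 14740 genes whose mean exceeded 0 log2 CPM entered limma 3.58.1 (R 4.3.3), which estimated a mean for each of the 10 groups from the 30 libraries together, with a prior variance that follows the mean (20 residual degrees of freedom, prior 2.85). P-values were Benjamini-Hochberg adjusted within each of 26 comparisons, and a gene passed under 0.05. The fit was tested on simulated data. The comparison of times within each treated group and the joint omission of DEHP 200 replicates 2 and 3 at 0 months were added after seeing the data. Alternatives were centring, quantile normalization, filters, a pseudocount of 1 CPM, array weights, other prior settings, a replicate block, fits of fewer groups and leaving out each library.

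Every member past the threshold was named. Values of every library were given for 9 fixed members. For the 2 members with the smallest p in each treated comparison and the 1 in each other, they covered mostly the libraries compared. From each wider list, the smallest p in each direction over the treated comparisons was taken. Genes of these lists named over time were chosen after their values were seen. Members, roles, marker lists and wider lists were chosen with earlier results of these data known, so no list was tested as a set. Promoter windows and gene coordinates are from RefSeq GRCm38.p6. For 25 of 33 entries, bases just after the listed start were found in the same orientation near the start of an annotated transcript.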

Additional observations from a re-analysis of the deposited data

How the results depend on the processing

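The lower level of the cell cycle genes at 3 months kept its direction for 39 or 40 members in every alternative. The count past the threshold ran from 20 to 38 when 1 library was left out, and was 29 with the replicate block, with which 2678 genes passed. With array weights 39 members (37 of them lower) and 6660 genes passed, against 32 and 2986 otherwise. Leaving out DEHP 200 replicates 2 and 3 of 0 months together gave 25 members, while 3099 genes passed (21.0% of all genes tested). Array weights also gave 6 members passing over time in DEHP 20, 13 in DiNP 100 and 7 in vehicle ovaries, where equal weights gave 0, and there 1366, 2227 and 531 genes against 3, 7 and 1 (114 against 3 in DiNP 20 ovaries, and 24 against 0 for the mean of the treated groups at 3 months). The cause was not tested. Leaving out 1 library gave 0 to 9 members passing over time in DiNP 100 ovaries (9 without replicate 2 of 3 months, where 14.1% of all genes passed) and 0 to 1 for DiNP 100 against DiNP 20 at 3 months. Of 1720 values of single members over time, 1490 kept their side of the threshold, 197 no longer passed and 33 newly passed. Medians of the 43 members changed sign in 25 of 1107 values, in 13 of the 26 comparisons, and Gmnn changed sign over time in 7 alternatives. Same-numbered libraries of different groups correlated at r = -0.454 to 0.388 at 3 months and -0.357 to 0.342 at 0 months (8 and 11 of 30 pairs over 0.1). Differently numbered libraries were not set beside them, so these values do not settle whether the numbers pair libraries. With 3 libraries a group and an SD of the members' mean of 0.22 log2, treated differences of the size of the medians reported could not be told from the spread.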

Other observations

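The 16 targets of p53 on the list did not share a direction over time. Gadd45a, a stress gene, rose at 3 months relative to 0 months by 0.96 ± 0.25 log2 (SE, limma adjusted p = 0.0106), and Ccng1, cyclin G1, by 0.25 ± 0.08 (adjusted p = 0.0275). Zmat3, a regulator of RNA, fell by 0.17 ± 0.06 on the log2 scale (adjusted p = 0.0409). These were the only genes of the list to pass. Over all genes tested 10.6% were called higher and 9.63% lower, and the calls on this list are near those shares. Mdm2, the p53 ligase, stood at 0.11 ± 0.05 (adjusted p = 0.104), and Bax and Bbc3, promoters of apoptosis, at -0.11 ± 0.08 and -0.05 ± 0.10 (adjusted p of 0.349 and 0.747). The median of the 16 was 0.07 log2, with 10 higher and 6 lower. Toward the treatments none passed, and Bbc3 in DEHP 20 ovaries at 0 months had the smallest p among lower genes, at -0.63 ± 0.22 log2 (limma adjusted p = 1).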
